A study of Mus musculus with 16 samples.

Results

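Claudins are the membrane proteins that seal or open the tight junctions between epithelial cells, and connexins are the membrane proteins that assemble into gap junction channels. Both gene families were followed across 16 RNA sequencing libraries of mouse mammary organoids. The members were the protein-coding genes of the deposited table whose symbol is Cldn followed by a number, or Gja to Gje followed by a number. This gave 52 genes, 32 claudins and 20 connexins, of 55487 genes in all. A further 5 genes with symbols of similar form (Cldnd1, Cldnd2, Cldn34-ps, Cldn25-ps and Cldn34c3) fell outside that rule and were left out.

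The organoids, which are small multicellular structures grown in culture, fell into 4 genotypes: WT with 3 libraries, PIK3CA mutant with 4, HER2 mutant with 4 and a double mutant, with both genes changed, with 5. The series title names the changes as HER2 V777L and PIK3CA H1047R. HER2 is a growth factor receptor with tyrosine kinase activity whose mouse gene is Erbb2, and PIK3CA is a catalytic subunit of phosphoinositide 3-kinase. All groups shared a culture medium with epidermal growth factor, B27, N-acetyl-cysteine and medium conditioned with Rspo1 and Noggin. Normal breast was the source of the WT organoids and tumor tissue that of every mutant, so genotype and source cannot be told apart in a comparison with WT. The labels give neither the promoter or Cre line behind the mutations, nor the age of the mice, nor whether the libraries of a group came from separate animals. P-values therefore measure the spread between these libraries, which may be technical.

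In background terms, claudins fall into sealing forms such as CLDN1, CLDN3, CLDN4 and CLDN7 and pore-forming forms such as CLDN2, which makes a channel for cations and water. In the mammary gland, tight junctions are leaky in pregnancy and close around the onset of milk secretion. Connexins assemble as hexamers, and hexamers of neighbouring cells dock into a channel for small molecules. In the mouse gland, connexin 43 (Gja1) is known from the myoepithelial layer, and connexins 26 (Gjb2) and 32 (Gjb1) from the luminal layer, with connexin 32 known from lactation.

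Library totals ranged from 45545182 to 64168308 counts, so that 3 counts, the least treated as detected, equalled 0.0477 to 0.0668 CPM, the counts scaled to a common library size. Erbb2 had 145 to 171 CPM in WT, 149 to 188 in PIK3CA mutant, 2696 to 4632 in HER2 mutant and 1499 to 2751 in double mutant libraries. The expression of Pik3ca was 75.9 to 85.7, 91.6 to 111, 61.4 to 74.2 and 110 to 122 CPM in the same order, and counts do not show the allele. Epithelial markers were present throughout, with a summed level of 11 luminal markers of 2425 to 5561 CPM. The libraries also differed in markers of other cells. The sum of 8 macrophage and immune markers was 627 to 3813 CPM in WT and 11.1 to 251 CPM in the mutants, and that of 7 fibroblast markers was 352 to 1940 CPM in WT, 35.2 to 639 CPM in the single mutants and 26.6 to 60.7 CPM in the double mutants. In bulk libraries, fewer cells of a type and less RNA per cell cannot be told apart. Double mutant libraries 2 and 3 stood apart from the other 3 on the second principal component of all genes, at -35.6 and -10.9 against 33.6 to 47.8, and for the genes described below, calls that changed without them are named.

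Of the 52 members, 26 had enough counts to be tested, 14 claudins and 12 connexins. The other 26, 18 claudins and 8 connexins, reached at most 0.773 CPM in any library (Gjb6), and 4 of them, Cldn22, Cldn34b1, Cldn34b4 and Cldn34d, had 0 counts in all 16 libraries, which allows at most 0.0668 CPM. Gjb1 passed the filter on low counts through the mutant libraries alone and Gja3 through 3 libraries. A member that passes only where it is high had to differ, so counts over the tested members are a description. Two-sided tests used edgeR's quasi-likelihood method over all 24252 tested genes, with Benjamini-Hochberg adjusted p under 0.05 as the call.

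Against WT, the level of 3 of the 26 tested members was called in PIK3CA mutants, all of them higher, where 4.52% of all tested genes were called (1.49% higher and 3.03% lower). In HER2 mutants 3 members were called, all higher, with 10.4% of all genes called (4.75% higher and 5.63% lower). These directions depended on the setting. With DESeq2, 5 members were called higher and 4 lower in PIK3CA mutants, and 6 higher and 1 lower in HER2 mutants. Of all genes DESeq2 called there, 708 of 1814 and 1845 of 3618 were higher. In double mutants 8 members were called, 6 higher and 2 lower, with 11.8% of all genes called (5.03% higher and 6.72% lower). Cldn1 and Gjb1 were called in each of the 3 comparisons, which share the same WT libraries. By family, 1 of 14 claudins was called in each comparison, and 2, 2 and 7 of 12 connexins in PIK3CA, HER2 and double mutants. The median log2 fold change of the tested connexins was 0.74, 0.81 and 1.35 in that order and that of the tested claudins was 0.20, -0.02 and -0.22, beside -0.03, 0.03 and 0.01 over all tested genes. Without WT library 3, the members called fell in number to 1, 1 and 3. All genes called then fell too, from 1096, 2518 and 2850 to 396, 733 and 1173. Without double mutant libraries 2 and 3, 4 members were called in double mutants and 6 in HER2 mutants. All genes called were then 2159 in place of 2850 in double mutants and 3531 in place of 2518 in HER2 mutants.

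**Figure D1:**
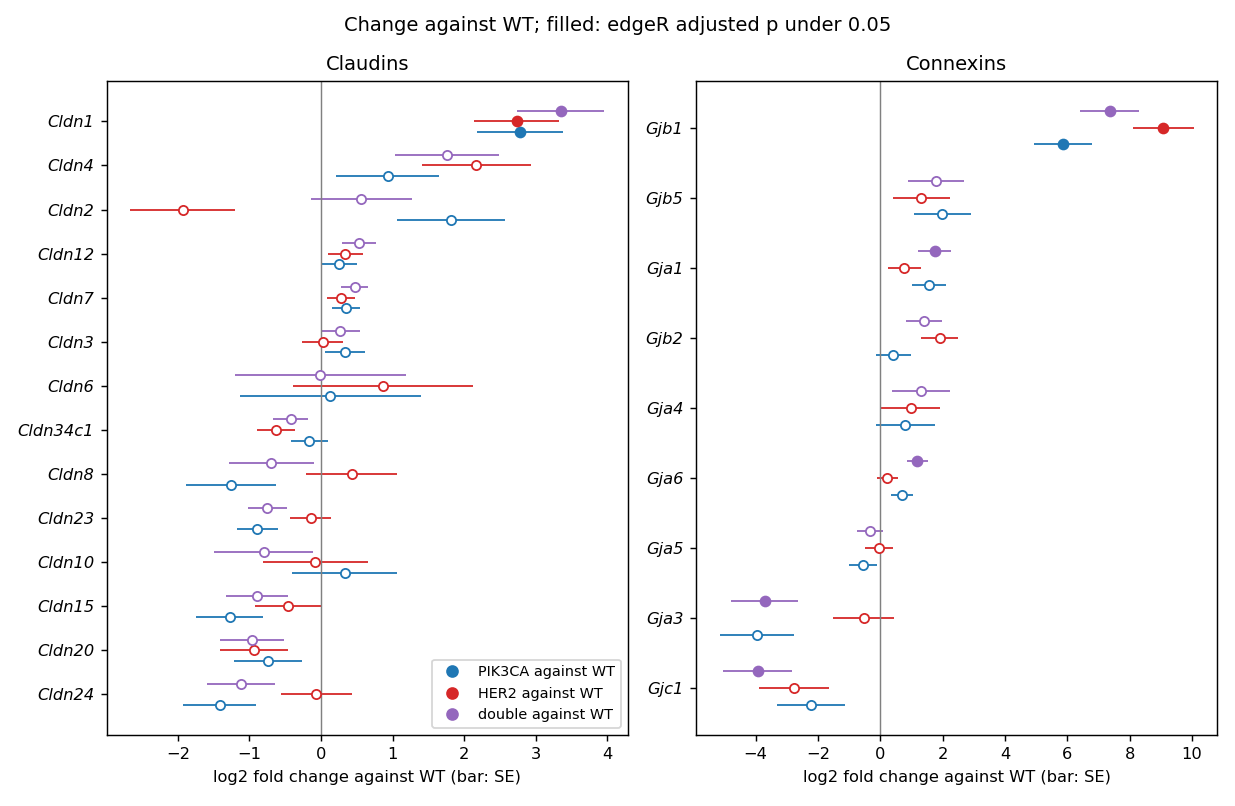
Log2 fold change against WT with its SE (horizontal axis) of tested claudins and connexins (rows) in PIK3CA (n = 4), HER2 (n = 4) and double mutants (n = 5), with filled points at an edgeR adjusted p under 0.05. Gjb1 lies farthest to the right, at 5.86, 9.07 and 7.35, and Cldn1 is the claudin with filled points in all 3 comparisons.

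Per kilobase of transcript, the scale on which genes can be compared with each other, Cldn3 had the highest mean level of all claudins, 184 CPM per kb, ahead of Cldn4 (90.8), Cldn7 (38.6), Cldn1 (14.5) and Cldn12 (13.9). Gja1 led the connexins at 65.2 CPM per kb, and Gjb2 had 9.90 and Gjb1 2.61 CPM per kb. These means are over all 16 libraries, and the orders differed between libraries as described below.

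Promoter sequences are shown for 3 genes on which the results turn. Cldn1 is the claudin called in every mutant genotype against WT, and Cldn2 and Gjb1, both on the X chromosome, were called in opposite directions between HER2 and PIK3CA mutants. The sequences are RefSeq's, on build GRCm38.p6, each the 250 bases before a transcription start, 5′ to 3′ on the gene's strand. Capitals mark a match to TATAAA or CACCTG. For Gjb1, which has 4 starts in that table, start 1 and start 4 are shown.
Cldn1, chr16:26371840-26372089, minus strand: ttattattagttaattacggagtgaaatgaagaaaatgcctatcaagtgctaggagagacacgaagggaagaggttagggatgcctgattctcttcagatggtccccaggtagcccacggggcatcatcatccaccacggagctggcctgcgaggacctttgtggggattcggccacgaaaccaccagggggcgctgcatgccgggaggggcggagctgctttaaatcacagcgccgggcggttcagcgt
Cldn2, chrX:139800558-139800807, plus strand: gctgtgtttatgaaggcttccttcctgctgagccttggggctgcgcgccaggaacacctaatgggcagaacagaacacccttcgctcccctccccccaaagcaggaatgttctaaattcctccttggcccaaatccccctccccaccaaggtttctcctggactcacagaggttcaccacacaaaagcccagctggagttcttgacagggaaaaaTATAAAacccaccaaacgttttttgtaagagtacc
Gjb1 start 1, chrX:101376126-101376375, plus strand: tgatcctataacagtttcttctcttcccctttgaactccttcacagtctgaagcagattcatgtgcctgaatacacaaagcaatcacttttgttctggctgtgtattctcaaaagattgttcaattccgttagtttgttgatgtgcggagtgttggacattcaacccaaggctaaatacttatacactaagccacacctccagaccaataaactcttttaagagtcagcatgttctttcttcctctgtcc
Gjb1 start 4, chrX:101383482-101383731, plus strand: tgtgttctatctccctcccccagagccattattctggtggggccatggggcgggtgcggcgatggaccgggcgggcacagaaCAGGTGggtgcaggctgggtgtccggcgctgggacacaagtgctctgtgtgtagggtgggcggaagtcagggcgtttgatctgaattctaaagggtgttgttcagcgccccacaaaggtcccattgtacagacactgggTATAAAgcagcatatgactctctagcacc
The window of Cldn1 held no match to any motif searched, and its last 2 bases lie in the annotated first exon. Cldn2 had TATAAA 35 bases before its start. Start 4 of Gjb1 had TATAAA 29 bases and CACCTG, on the opposite strand, 168 bases before it, and its other 3 windows had neither. Both motifs were searched on both strands, along with AACCGGTT and TTCNNNGAA. Background shares were counted in longer windows that hold the 250 bases and also run past the start, so the 2 are not alike. In all 32851 of the longer windows, 13.6% held TATAAA, which was added to the search after sequences had been seen. CACCTG was in 20.2%, TTCNNNGAA in 8.3% and AACCGGTT in 0.146%. The 36 members with an entry have 48 of these longer windows, of which 11 held CACCTG, 6 TATAAA, 5 TTCNNNGAA and 0 AACCGGTT. A match is a match of letters in the window searched only.

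Gjb1 (ENSMUSG00000047797, chromosome X, 101376378 to 101385629 in GRCm38) encodes connexin 32. It was close to undetected in WT, with 0, 0.0600 and 0 CPM in WT libraries 1 to 3, which are 3 counts in all. PIK3CA mutant libraries 1 to 4 had 1.19, 1.61, 0.686 and 1.29 CPM. HER2 mutant libraries 1 to 4 had 19.0, 11.2, 4.74 and 9.54 CPM. The double mutant libraries 1 to 5 had 3.76, 3.90, 0.883, 5.91 and 2.39 CPM. Every mutant library was above every WT library, every HER2 mutant library was above every PIK3CA mutant library, and the double mutants overlapped both single mutants. The pooled, scaled counts were 67.1 times those of WT in PIK3CA mutants (95% interval 22.7 to 328), 636 times in HER2 mutants (217 to 3080) and 189 times in double mutants (64.6 to 920). These are exact binomial intervals for counting error only, wide because of the 3 WT counts. The fitted log2 fold changes against WT, which depend on the prior count for such a gene, were 5.86 (edgeR adjusted p 0.00194, SE 0.937), 9.07 (adjusted p 0.000201, SE 0.980) and 7.35 (adjusted p 0.000264, SE 0.940).

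Between mutants, all from tumors, the Gjb1 level was 9.29 times higher in HER2 than in PIK3CA mutants (log2 difference 3.21, edgeR adjusted p 0.00752, SE 0.587). This call was kept in each fit that left out a library. Those against WT were kept too, at log2 5.28 to 8.98 (PIK3CA), 8.49 to 12.2 (HER2) and 6.77 to 10.5 (double mutants). Since Gjb1 passed the filter through the mutants alone, that the calls against WT were kept is a description and no further support. Double mutants had a log2 difference of -1.72 to HER2 mutants (edgeR adjusted p 0.0791, SE 0.511) and of 1.49 to PIK3CA mutants (adjusted p 0.255, SE 0.537), neither past the threshold. The first difference passed with DESeq2 and without HER2 library 3 (-1.97). Gjb1 was the 1 member of 26 called in the interaction, the log2 difference between the double mutant and both single-mutant changes added together, which called 1.06% of all tested genes. The estimate was -7.58 (edgeR adjusted p 0.00562, SE 1.07). It ran from -10.7 to -7.00 in 16 fits that each left out a library and was called in all 16. With Gjb1 near 0 in WT throughout, this too is a description and no further support. The interaction includes WT, where Gjb1 is near 0 and the tissue source differs, and a change with source shared by all mutants would enter it.

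Levels of Gjb1 were set beside the summed level of 7 milk genes, which was 3291 to 5539 CPM in WT, 8718 to 14640 in PIK3CA mutant, 6234 to 51770 in HER2 mutant and 7118 to 22830 in double mutant libraries. Csn3 made up most of the sum in WT (3049 to 4877 CPM), PIK3CA mutants (8476 to 13270) and double mutants (5821 to 20560). Csn2 had 0.0350 to 0.334 CPM in WT, 0.124 to 0.421 in PIK3CA, 1304 to 22710 in HER2 and 0.883 to 12.8 in double mutants. Csn1s2a was likewise highest in HER2 mutants, at 107 to 3128 CPM. For the other milk genes, HER2 and double mutants overlapped. Of these milk genes, 6 of 7 were called higher in HER2 mutants and 3 of 7 in double mutants against WT. Within the HER2 mutants the libraries did not order alike. Library 3 had the highest milk sum, 51770 CPM, and the lowest Gjb1 level, 4.74 CPM. Library 2 had the lowest milk sum, 6234 CPM, with the second-highest Gjb1 level, 11.2 CPM. The part of the milk genes' cell state in the Gjb1 result was not tested.

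**Figure D2:**
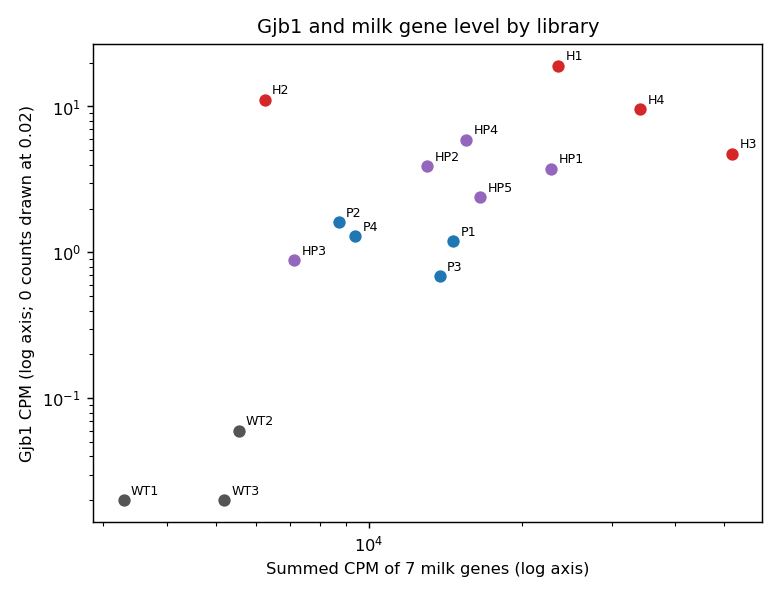
Level of Gjb1 (vertical, CPM, log axis, with 0 counts drawn at 0.02) against the summed CPM of 7 milk genes (horizontal, log axis), 1 point per library, coloured by genotype. WT lies at the lower left, and among HER2 mutants the library with 51770 CPM of milk genes has the lowest Gjb1 level, 4.74 CPM.

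Gjb2 (ENSMUSG00000046352, chromosome 14, 57098600 to 57104702) encodes connexin 26, which can share channels with connexin 32. Its WT libraries had 20.4, 3.16 and 7.71 CPM. The PIK3CA mutants had 17.0, 13.8, 10.3 and 14.7 CPM. The HER2 mutants had 66.2, 12.4, 24.8 and 52.7 CPM. Double mutants had 23.1, 49.0, 18.7, 24.9 and 22.0 CPM. WT library 1 was above HER2 library 2, above all PIK3CA mutants and above double mutant library 3, so WT overlapped every mutant genotype. With edgeR, Gjb2 passed in none of the 7 comparisons. In HER2 mutants against WT the log2 fold change was 1.90 (edgeR adjusted p 0.0527, SE 0.594), which passed with DESeq2, with limma, with no filter on low counts, without WT library 1 (log2 fold change 2.84) or HER2 library 2 (2.198), and without double mutant libraries 2 and 3 (1.90, adjusted p 0.0449). The log2 fold change in double mutants was 1.398 (edgeR adjusted p 0.121), which passed without WT library 1 (2.34, adjusted p 0.0321). Between HER2 and PIK3CA mutants the log2 difference was 1.48 (edgeR adjusted p 0.124), which passed with DESeq2.

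Gja1 (ENSMUSG00000050953, chromosome 10, 56377330 to 56402513) encodes connexin 43. Its WT libraries had 46.1, 169.5 and 44.4 CPM. The PIK3CA mutants had 216, 306, 133 and 367 CPM. The HER2 mutants had 96.8, 180, 225 and 85.0 CPM. Double mutants had 183, 424, 464, 208 and 170.5 CPM. WT library 2 stood above the other WT libraries and just below the lowest double mutant library, and overlapped both single mutants. Gja1 rose 3.35-fold in double mutants (log2 fold change 1.74, edgeR adjusted p 0.0450, SE 0.536), and this call was lost in 5 of 8 fits without a library, under upper-quartile scaling, in a fit of these genotypes alone and without double mutant libraries 2 and 3 (log2 1.11, adjusted p 0.216). The log2 fold change was 1.56 in PIK3CA mutants (edgeR adjusted p 0.134, SE 0.546), which passed with DESeq2 and without WT library 2 (2.497), and 0.76 in HER2 mutants (adjusted p 0.397, SE 0.531). WT library 2 also had the highest sum of 8 basal and myoepithelial markers in WT, 1019 CPM against 473 and 884 CPM, and the highest of fibroblast markers, 1940 CPM. Basal marker sums were 502 to 1375 CPM in PIK3CA, 260 to 972 in HER2 and 555 to 1021 in double mutants, and their part in the Gja1 level was not tested.

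**Figure D3:**
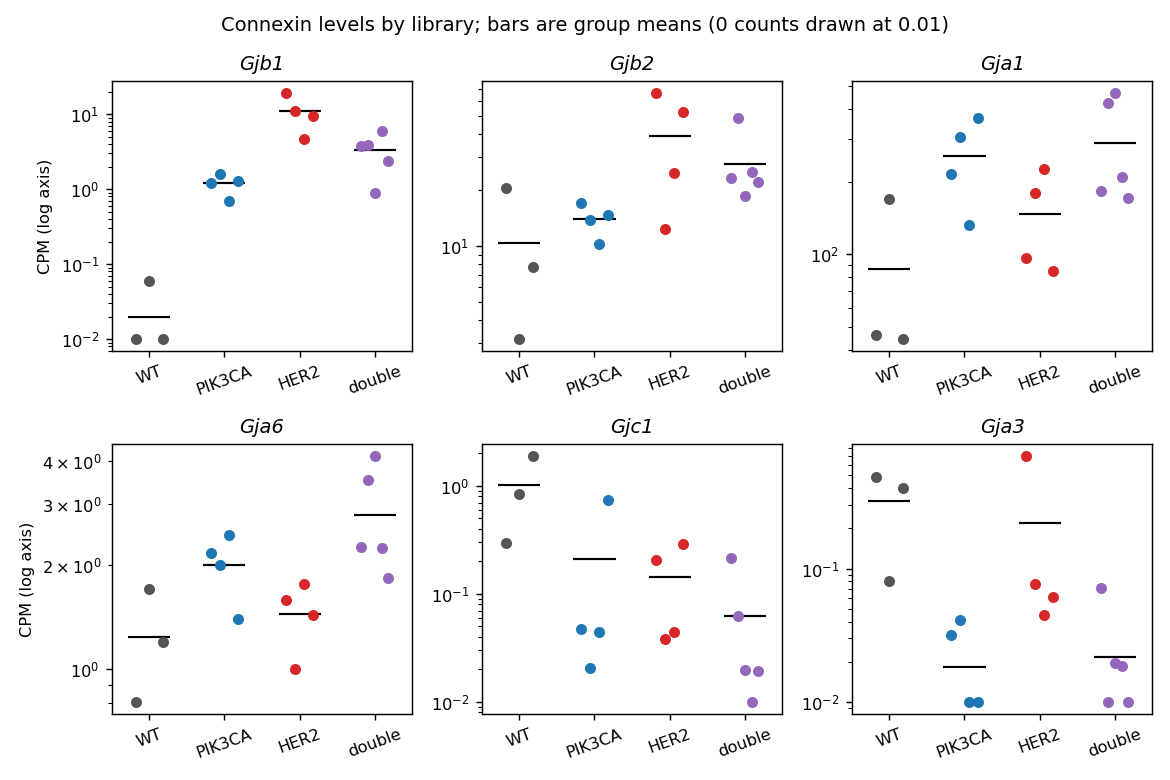
CPM (log axis) of 6 connexin genes in each library, by genotype (WT n = 3, PIK3CA n = 4, HER2 n = 4, double mutant n = 5), with a bar at each group mean and 0 counts drawn at 0.01. Gjb1 separates all mutants from WT, and Gjc1 lies below WT in all double mutants, at 0 to 0.213 CPM.

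Gja6, Gjc1 and Gja3, which were also called in double mutants, were at low levels. Gja6 (ENSMUSG00000055691, chromosome X, 160902116 to 160907052) had 0.804, 1.70 and 1.201 CPM in WT and 2.25, 3.52, 4.12, 2.23 and 1.83 CPM in double mutants, with no overlap. PIK3CA mutants had 2.16, 2.004, 2.44 and 1.39 CPM and HER2 mutants 1.58, 1.002, 1.76 and 1.43 CPM, both overlapping WT. Gja6 rose 2.26-fold in double mutants (log2 fold change 1.18, edgeR adjusted p 0.0325, SE 0.337), which was lost in 4 of 8 fits without a library, with no filter on low counts, in a fit of these genotypes alone and without double mutant libraries 2 and 3 (log2 0.77, adjusted p 0.152). The locus of Gja6 overlaps another annotated gene, so its counts are uncertain.

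Gjc1 (ENSMUSG00000034520, chromosome 11, 102799579 to 102819700), which encodes connexin 45, had 0.297, 0.841 and 1.89 CPM in WT. Double mutants had 0.213, 0.0629, 0.0196, 0 and 0.0194 CPM, all below WT. The HER2 mutants had 0.207, 0.0386, 0.0445 and 0.287 CPM, and the PIK3CA mutants 0.0477, 0.0207, 0.0443 and 0.732 CPM. PIK3CA library 4 was thus the 1 mutant library inside the WT range. Gjc1 fell in double mutants (log2 fold change -3.93, edgeR adjusted p 0.0301, SE 1.11), where its scaled pooled counts, 172 in WT and 17 in double mutants, were 15.8 times higher in WT (95% counting interval 9.57 to 27.7). The call was lost in 6 of 8 fits without a library, with the replicate block and without double mutant libraries 2 and 3 (-3.64, adjusted p 0.120). In PIK3CA mutants the log2 fold change was -2.22 (edgeR adjusted p 0.317), which passed without PIK3CA library 4 (-4.65). The library with the highest Gjc1 level in each single-mutant genotype, PIK3CA library 4 and HER2 library 4, had also the highest fibroblast marker sum there, 485 and 639 CPM, and no double mutant library exceeded 60.7 CPM. The other libraries did not order alike. HER2 library 2 had 327.5 CPM of fibroblast markers and less Gjc1 than HER2 library 1, which had 38.3 CPM of them. In WT the fibroblast sum was highest in library 2 and Gjc1 in library 3. The part of fibroblasts in the Gjc1 result was not tested.

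Gja3 (ENSMUSG00000048582, chromosome 14, 57034460 to 57058100) encodes connexin 46, best known from the lens. It had 28, 4 and 24 counts in the WT libraries, or 0.489, 0.0800 and 0.400 CPM, and 4, 0, 1, 1 and 0 counts in double mutants. PIK3CA mutants had 2, 2, 0 and 0 counts and HER2 mutants 37, 4, 2 and 3, so that HER2 library 1 was higher than all WT libraries. Gja3 fell in double mutants (log2 fold change -3.71, edgeR adjusted p 0.0351, SE 1.08), with scaled pooled counts 14.6 times higher in WT (95% counting interval 6.28 to 41.3). That call was lost in 6 of 8 fits without a library, with the replicate block and without double mutant libraries 2 and 3 (-3.32, adjusted p 0.130). In PIK3CA mutants the log2 fold change was -3.96 (edgeR adjusted p 0.0767), which passed with DESeq2.

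Among the claudins, Cldn1 (ENSMUSG00000022512, chromosome 16, 26356642 to 26371841), a sealing claudin, was the 1 member called against WT in every mutant genotype. WT libraries had 7.12, 10.2 and 3.67 CPM. The PIK3CA mutants had 70.3, 42.7, 32.6 and 46.5 CPM. The HER2 mutants had 76.3, 10.4, 38.8 and 59.9 CPM. Double mutants had 108, 111, 34.4, 54.5 and 48.1 CPM. Every mutant library was above every WT library, although HER2 library 2 was so by a small margin. Cldn1 rose 6.89-fold in PIK3CA mutants (log2 fold change 2.78, edgeR adjusted p 0.0133, SE 0.601), 6.65-fold in HER2 mutants (log2 2.73, adjusted p 0.0104, SE 0.600) and 10.2-fold in double mutants (3.35, adjusted p 0.00217, SE 0.608). The call in double mutants was kept in all 8 fits without a library. In PIK3CA mutants it was lost without WT library 1 or 3, and in HER2 mutants without WT library 3 and in a fit of these genotypes alone. The interaction estimate was -2.16 (edgeR adjusted p 0.183, SE 0.735), which did not pass, and passed without HER2 library 2 (-2.50).

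Cldn2 (ENSMUSG00000047230, chromosome X, 139800828 to 139811386), the pore-forming claudin, separated the single mutants. Its WT libraries had 7.04, 7.46 and 6.67 CPM. PIK3CA mutants had 36.2, 19.5, 28.2 and 15.7 CPM, all above WT. HER2 mutants had 1.53, 3.30, 0.712 and 1.86 CPM, all below WT. Double mutants spread over the whole range, with 27.1, 2.75, 1.45, 15.1 and 5.79 CPM, and libraries 2 and 3 were the lowest. Cldn2 was 13.4 times lower in HER2 than in PIK3CA mutants (log2 difference -3.75, edgeR adjusted p 0.0117, SE 0.747), and that call was kept in all 8 fits without a library. Against WT the log2 fold change was 1.82 in PIK3CA mutants (edgeR adjusted p 0.226, SE 0.761) and -1.93 in HER2 mutants (adjusted p 0.107, SE 0.733), and neither passed although the groups did not overlap. The first passed in a fit of these genotypes alone, and the second with DESeq2 and without double mutant libraries 2 and 3. Double mutants differed from HER2 mutants by 2.49 on the log2 scale (edgeR adjusted p 0.0639, SE 0.693). That difference passed without double mutant library 2 (2.74), without library 3 (2.77) and without both.

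Between HER2 and PIK3CA mutants, Cldn2 and Gjb1 were the 2 members called, 1 in each direction, with 4.41% of all tested genes called (2.21% higher and 2.2% lower). Between double and HER2 mutants, edgeR called 0 of 26 members, with 2.5% of all genes called. There, 7 members had an unadjusted p under 0.05, DESeq2 called 3 (Cldn2, Gja6 and Gjb1) and limma 0, with 1652 and 487 genes called of all. Between double and PIK3CA mutants, edgeR called 0 of 26, with 0.672% of all genes called. There, 1 member had an unadjusted p under 0.05, and DESeq2 and limma called 0.

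Cldn3 and Cldn4, neighbours on chromosome 5 and both receptors for a clostridial toxin, were the most abundant claudins per length. Cldn3 (ENSMUSG00000070473, 134986214 to 134987472) had 239, 184 and 189 CPM in WT and 237, 270, 215 and 310 CPM in PIK3CA mutants. HER2 mutants had 142, 206, 267 and 215 CPM and double mutants 196, 415, 274, 179 and 168 CPM. All groups overlapped, and Cldn3 passed in none of the 7 comparisons, with edgeR adjusted p from 0.558 to 0.971. Exons of Cldn3 overlap Wbscr25 on the opposite strand, which had a mean of 4.63 CPM, and the strandedness of the counts is not given in the sources used here.

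Cldn4 (ENSMUSG00000047501, 134945119 to 134946934) varied more within genotypes. It had 80.5, 57.5 and 35.6 CPM in WT and 79.2, 118, 61.4 and 183 CPM in PIK3CA mutants. HER2 mutants had 103, 359, 398 and 183 CPM, all above WT. Double mutants had 54.9, 568, 210, 80.6 and 66.8 CPM, with libraries 2 and 3 highest and the other 3 overlapping WT. In HER2 mutants the change from WT was 2.17 on the log2 scale (edgeR adjusted p 0.0799, SE 0.756), and in double mutants it was 1.76 (adjusted p 0.128, SE 0.723). Neither passed, and both passed with DESeq2. The first also passed without double mutant libraries 2 and 3. Without them, the change in double mutants was 0.22 (edgeR adjusted p 0.835), and leaving out 1 library gave 0.833 to 2.07. Double mutants differed from HER2 mutants by -0.41 (edgeR adjusted p 0.798), and without libraries 2 and 3 by -1.95 (adjusted p 0.0366), a call. The interaction estimate of -1.34 (edgeR adjusted p 0.588) was then also called, at -2.885 (adjusted p 0.0302).

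Cldn7 (ENSMUSG00000018569, chromosome 11, 69964779 to 69967885), a basolateral claudin, kept a narrow range. WT had 43.5, 40.7 and 39.8 CPM and PIK3CA mutants 49.4, 53.2, 51.1 and 57.6 CPM, with no overlap. HER2 mutants had 32.3, 47.3, 58.6 and 63.4 CPM, overlapping WT. Double mutants had 46.2, 74.7, 59.0, 53.4 and 53.5 CPM, also all above WT. With edgeR over all libraries, Cldn7 passed in none of the 7 comparisons. In PIK3CA mutants against WT its log2 fold change was 0.35 (edgeR adjusted p 0.396), which passed in a fit of these genotypes alone (adjusted p 0.0175). Its largest log2 fold change against WT was 0.47 in double mutants (edgeR adjusted p 0.121). Cldn8, a claudin known from the kidney's collecting duct and chosen here after its values were seen, had 2.27 to 4.37 CPM in PIK3CA and 5.36 to 19.8 CPM in HER2 mutants, a log2 difference of 1.69 (edgeR adjusted p 0.127, SE 0.604), which passed with DESeq2 and without double mutant libraries 2 and 3. Like Cldn2, it was lowest in double mutant libraries 2 and 3, at 1.49 and 1.14 CPM, against 4.23 to 12.4 CPM in the other 3.

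**Figure D4:**
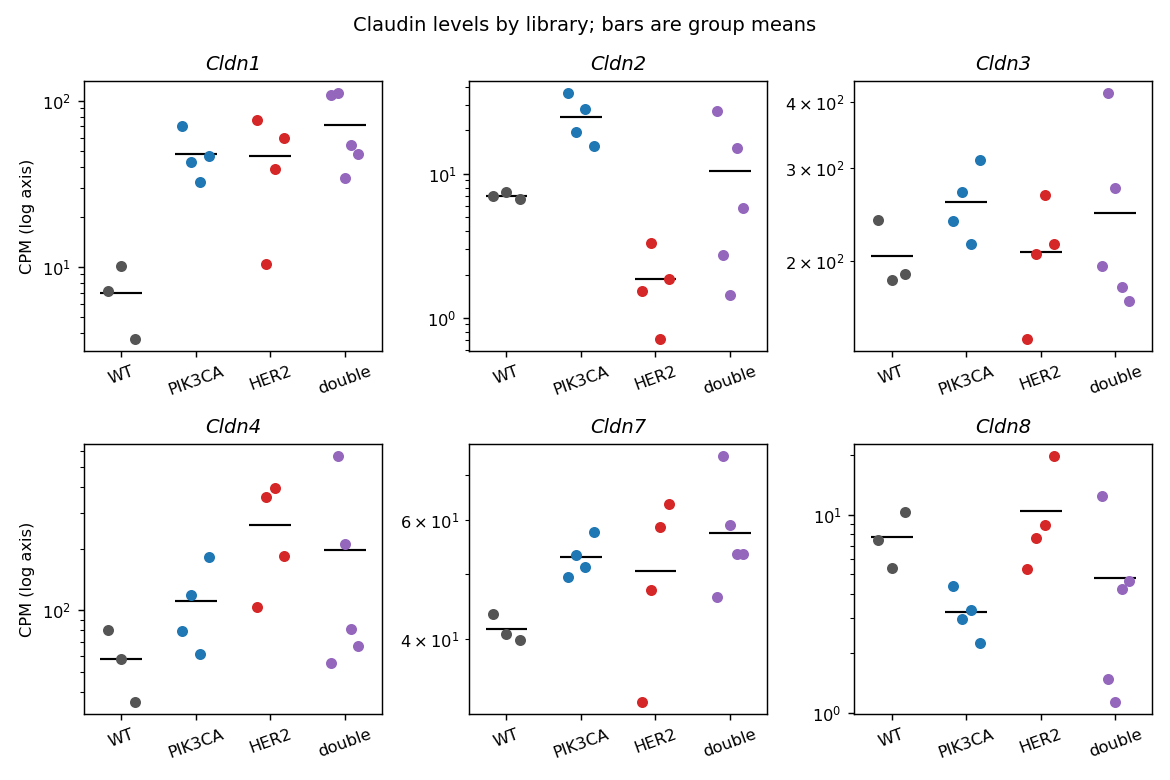
CPM (log axis) of 6 claudin genes in each library, by genotype (WT n = 3, PIK3CA n = 4, HER2 n = 4, double mutant n = 5), with a bar at each group mean. Cldn1 lies above WT in all mutants, and Cldn2 lies at 15.7 to 36.2 CPM in PIK3CA and 0.712 to 3.30 CPM in HER2 mutants.

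Other tested members were Cldn6, Cldn8, Cldn10, Cldn12, Cldn15, Cldn20, Cldn23, Cldn24, Cldn34c1, Gja4, Gja5 and Gjb5. None of these was called by edgeR in any of the 7 comparisons, where their lowest adjusted p was 0.0901 (Cldn23 in double mutants against WT, log2 fold change -0.75). In PIK3CA mutants against WT, DESeq2 called Cldn23, which was lower, as did a fit of these genotypes alone, and the highest log2 fold change among them was 1.99, for Gjb5 (edgeR adjusted p 0.284). Without HER2 library 1, Cldn23 (0.97) and Gjb5 passed between HER2 and PIK3CA mutants. Gjb5 then also passed between double and HER2 mutants, and Cldn12 in HER2 mutants against WT. In a fit of only the genotypes compared, Cldn12 passed in double mutants against WT and Cldn8 in PIK3CA mutants against WT.

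The makeup of each family was taken per kilobase in each library, as a description without a test. Cldn3 held 61.6% to 65.3% of the summed claudin level in WT, 56.9% to 59.1% in PIK3CA mutants, 37.3% to 48.2% in HER2 mutants and 43.4% to 53.1% in double mutants. The share of Cldn4 was 8.54% to 14.7% in WT, 11.7% to 23.2% in PIK3CA, 24.3% to 45.1% in HER2 and 10.3% to 41.2% in double mutants. Cldn4 exceeded Cldn3 in HER2 libraries 2 and 3, and Cldn3 led in the other 14 libraries. Gja1 led the connexins in all 16 libraries, with 41.8% to 76.7% in WT, 63.6% to 77.3% in PIK3CA, 30.8% to 67.3% in HER2 and 56.7% to 76.5% in double mutants. Gjb1 reached at most 12.1% of the connexin level, in a HER2 mutant. The summed connexin level was 25.6 to 69.5 CPM per kb in WT, 62.2 to 149 in PIK3CA, 65.0 to 105 in HER2 and 94.5 to 192 in double mutants. The summed claudin level, 230 to 301 CPM per kb in WT and 234 to 759 in the mutants, overlapped between WT and every mutant genotype.

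**Figure D5:**
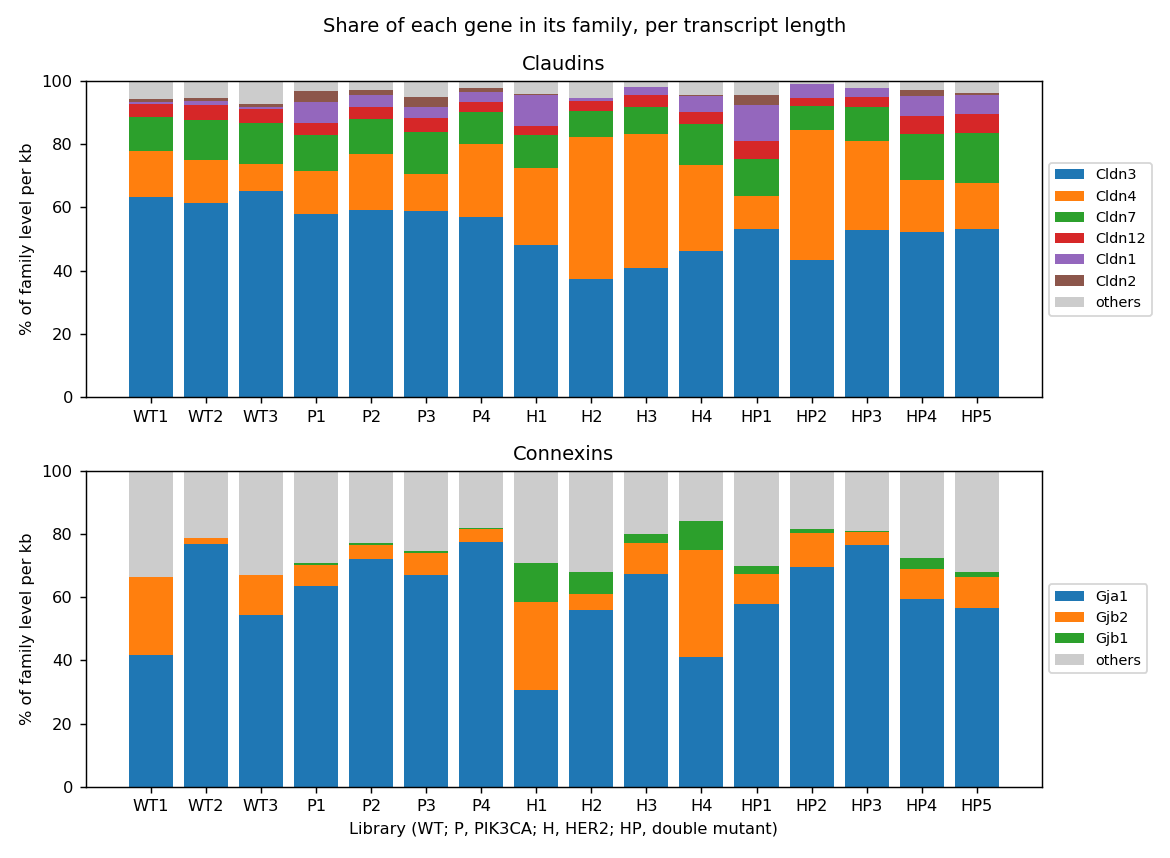
Share of each gene in the summed level per kilobase of its family (vertical, percent) in each of the 16 libraries (horizontal), with claudins above and connexins below. Cldn4 takes up to 45.1% of the claudin level in HER2 libraries and Gja1 is the largest connexin share in all libraries.

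Other genes of both junctions were taken from fixed lists. Of 27 further tight-junction genes tested, scaffold, polarity and membrane proteins, edgeR called 0 in PIK3CA mutants against WT, where 4 had an unadjusted p under 0.05 and DESeq2 and limma called 0. The calls of this list stand beside 4.52%, 10.4% and 11.8% of all tested genes called in PIK3CA, HER2 and double mutants. In HER2 mutants 1 was higher, Mpdz (a scaffold with many PDZ domains, log2 fold change 0.74, edgeR adjusted p 0.0475, SE 0.227, lost in 6 of 7 fits without a library), and 1 lower, Cgnl1 (paracingulin, -0.97, adjusted p 0.00936, SE 0.207). Both calls were lost in a fit of these genotypes alone, and that of Mpdz also with no filter on low counts, with limma and with the replicate block. In double mutants 1 was lower, Jam3, a junctional adhesion molecule (-2.12, edgeR adjusted p 0.0262, SE 0.580), lost in 5 of 8 fits without a library and without double mutant libraries 2 and 3 (-1.90, adjusted p 0.105). The median log2 fold change of the list was 0.09, 0.07 and 0.01, beside -0.03, 0.03 and 0.01 over all tested genes.

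Of 14 further gap-junction genes tested, pannexins and proteins that bind or act on connexins, 1 was higher and 1 lower in PIK3CA mutants, 2 higher and 1 lower in HER2 mutants, and 2 higher and 3 lower in double mutants, beside 4.52%, 10.4% and 11.8% of all tested genes called. Cav1, the main caveolar protein and a partner of connexin 43, had 58.4 ± 7.66 CPM (SD, n = 5) in double mutants against 16.3 ± 7.77 CPM (SD, n = 3) in WT, a log2 fold change of 1.84 (edgeR adjusted p 0.00943, SE 0.420), lost without WT library 1 or 3. It rose by 1.75 in PIK3CA mutants too (edgeR adjusted p 0.0271, SE 0.429, lost in 5 of 7 fits without a library and with the replicate block). Panx2, a pannexin, fell in double mutants (-2.19, edgeR adjusted p 0.000549, SE 0.321), as did Cnst, which encodes consortin, a trafficking receptor for connexins (-0.50, adjusted p 0.00732, SE 0.110, lost with no filter on low counts). Ccn3, a secreted protein that binds connexin 43, fell in double mutants (-6.97, edgeR adjusted p 0.00309, SE 1.332) from 3.18 ± 2.46 CPM in WT (SD, n = 3). The kinase gene Prkca fell in HER2 mutants (-0.92, edgeR adjusted p 0.0218, SE 0.233), which was lost in 3 of 7 fits without a library and in a fit of these genotypes alone. Csnk1d rose in HER2 (0.6, edgeR adjusted p 0.0257) and double mutants (0.49, adjusted p 0.0448), lost in 2 of 7 and 6 of 8 such fits. In double mutants it was also lost without libraries 2 and 3. Panx3 rose in HER2 mutants (2.49, edgeR adjusted p 0.0444), lost in 5 of 7 such fits and with limma. Ccn3 also fell in PIK3CA mutants (-4.41, edgeR adjusted p 0.0498), lost in 5 of 7 and with DESeq2. The list's median log2 fold change was 0.22, -0.13 and -0.11, beside -0.03, 0.03 and 0.01 over all tested genes. Tjp1 is in both lists, and Epcam is also a luminal marker.

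Of 18 epithelial regulators known to act on claudins, 16 were tested. EdgeR called 0 in PIK3CA mutants against WT, where 1 had an unadjusted p under 0.05 and DESeq2 and limma called 0. It called 2 in HER2 and 1 in double mutants. Of all tested genes, 4.52%, 10.4% and 11.8% were called in PIK3CA, HER2 and double mutants. Ovol2, a repressor that keeps the epithelial state, fell in HER2 mutants (log2 -0.93, edgeR adjusted p 0.0291, SE 0.251, lost in 6 of 7 fits without a library) and in double mutants (-1.16, adjusted p 0.00469, SE 0.237, kept in all 8). The call in HER2 mutants was also lost with no filter on low counts and in a fit of these genotypes alone. Wnk4, a kinase known to phosphorylate claudins, rose in HER2 mutants (1.80, edgeR adjusted p 0.0101, SE 0.392), which was lost without WT library 3 and in a fit of these genotypes alone. The median log2 fold change was 0.11, 0.00 and -0.20, beside -0.03, 0.03 and 0.01 over all tested genes.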

How the data were processed

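RNA libraries were made with a SMARTer mRNA kit from column-purified total RNA of the 16 organoid samples, per the labels' protocols. Per the submitters' processing notes, the build was mm10 and the tools included STAR 2.0.4b and Subread featureCounts 1.4.5. The strandedness and the annotation used for counting are not given in the sources used here. The authors deposited whole-number read counts per Ensembl gene and a second table of normalized signal. Dividing the counts by median-of-ratios size factors from DESeq2 gave the deposited signal values, with relative differences of at most 5.49e-10. After 287 repeated entries were dropped, 55487 genes remained.

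Counts were fitted with edgeR 4.0.16 in R 4.3.3 (filterByExpr, TMM factors, estimateDisp, glmQLFit and glmQLFTest) over all 16 libraries with genotype as the factor, and p was adjusted with Benjamini-Hochberg over 24252 genes. The SE is the log2 fold change divided by the square root of F. CPM are scaled with TMM factors, and levels per kilobase use the longest protein-coding transcript of GENCODE M21 (GRCm38), which listed all 52 members. Of these, 12 overlap another gene, 5 of them in an exon. Alternatives were DESeq2 1.42.0, limma 3.58.1 on log2(normalized value + 1), other scalings, no filter, the replicate block, a fit of only the genotypes compared and each library left out. Leaving out double mutant libraries 2 and 3 together was added after the data had been seen. The code was tested on simulated data.

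Described in detail were members called in any of the 7 comparisons and the 4 claudins and 4 connexins with the highest mean level per kilobase. Some members that met this rule are not reported here. The members, marker lists and other gene lists were chosen with earlier results of these data known.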

Additional observations from a re-analysis of the deposited data

Results flagged for a closer look

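Gja3 (connexin 46) had 0.698 CPM in HER2 mutant library 1, far from 0.0445 to 0.0771 CPM in the other 3 HER2 mutant libraries. Gjc1 (connexin 45) had 0.732 CPM in PIK3CA mutant library 4, against 0.0207 to 0.0477 CPM in the other 3. For each, the gap to the nearest library, on the scale of log2(CPM + 0.1), exceeded Dixon's critical value (ratios 0.881 and 0.895). In all, 39 groups of the 13 members that met the rule for detailed description were examined, and chance alone flags about 1 in 20 groups. PIK3CA library 4 also had the highest fibroblast marker sum of that genotype, 485 CPM against 68.1 to 185 CPM. The interaction estimate of Gjb1 (connexin 32) was -7.58 on the log2 scale (edgeR adjusted p 0.00562). It rests on a WT level of 3 counts in 3 libraries. WT came from normal breast and every mutant from tumor tissue, so genotype and source cannot be told apart in it. In the comparisons without WT, double mutants differed by -1.72 from HER2 mutants (edgeR adjusted p 0.0791) and by 1.49 from PIK3CA mutants (adjusted p 0.255). Neither was called.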

How the results depend on the processing

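No call of a named claudin or connexin changed direction under any alternative run, and the causes of the changes below were not tested. With DESeq2, which tests a different number of members, the members called numbered 9 in PIK3CA and 7 in HER2 mutants against WT, 3 between double and HER2 mutants and 4 between HER2 and PIK3CA mutants. DESeq2 called 1814, 3618, 1652 and 2127 genes of all in these, in place of 1096, 2518, 606 and 1069. The 9 members in PIK3CA mutants were 5 higher and 4 lower, and the 7 in HER2 mutants 6 higher and 1 lower. A fit of only the genotypes compared gave 9 in PIK3CA and 1 in HER2 mutants against WT, and called 4136 genes of all in the former and 541 in the latter, in place of 1096 and 2518. The 9 were 6 higher and 3 lower, with 1942 of the 4136 genes higher. With no filter on low counts, 1 member (Cldn2) was called between double and HER2 mutants, with 693 in place of 606 genes called of all. Without double mutant libraries 2 and 3, 6 members were called in HER2 and 4 in double mutants against WT, 2 between double and HER2 mutants and 2 in the interaction. All genes called in these were 3531, 2159, 1125 and 998, in place of 2518, 2850, 606 and 257. Leaving out 1 library gave 1 to 4 members called in PIK3CA, 1 to 5 in HER2 and 3 to 8 in double mutants against WT, 0 to 1 between double and HER2 mutants, 0 to 0 between double and PIK3CA mutants, 2 to 4 between HER2 and PIK3CA mutants and 1 to 2 in the interaction. All genes called in the same order were 396 to 1043, 733 to 2693 and 1173 to 2961 against WT. Between mutants they were 256 to 975, 17 to 143 and 427 to 1166, and in the interaction 54 to 382. The lowest counts against WT came without WT library 3. Without double mutant library 2 or library 3, 4 members were called in double mutants, and 5 without library 4. Without HER2 library 4, 5 were called in HER2 mutants, and without HER2 library 1, 4 between HER2 and PIK3CA mutants. Between double and HER2 mutants, 1 member was called without HER2 library 1 (Gjb5), HER2 library 3 (Gjb1) or double mutant library 2 or 3 (Cldn2). In the interaction, Cldn1 joined Gjb1 without HER2 library 2.

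Same-numbered libraries did not deviate together, with a mean correlation of 0.012 over 21 pairs (-0.163 to 0.273) against -0.004 for 74 other pairs, and the best partner had the same number in 9 of 42 cases. Between HER2 and double mutants all 4 same-numbered pairs had positive correlations (0.141, 0.071, 0.273 and 0.144), 1 of them under 0.1. The numbers were therefore not taken as pairs. With the replicate block, 4, 3 and 6 members were called in PIK3CA, HER2 and double mutants against WT, 0 between double and either single mutant, 2 between HER2 and PIK3CA mutants and 1 in the interaction. Over all genes the block gave 552 in place of 1069 calls between HER2 and PIK3CA mutants, 1625 in place of 2518 in HER2 mutants against WT, 118 in place of 606 between double and HER2 mutants, 19 in place of 163 between double and PIK3CA mutants and 35 in place of 257 in the interaction. With the block, Cldn3 had estimates of the opposite sign, all near 0, in HER2 mutants against WT (-0.002), between double and PIK3CA mutants (0.005) and in the interaction (0.007).

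Estimates that were not called crossed 0 in 20 pairs of gene and comparison. When a library was left out, the log2 fold change against WT ran from -0.013 to 1.36 for Gjb2 in PIK3CA mutants, from -0.006 to 0.52 for Gja6 and from -0.121 to 0.17 for Cldn3 in HER2 mutants, and from -0.168 to 0.85 for Cldn2 in double mutants. Between double and HER2 mutants it ran from -0.024 to 0.39 for Cldn3. Between double and PIK3CA mutants it ran from -2.99 to 0.72 for Gjc1, -0.098 to 1.19 for Cldn4, -0.795 to 0.82 for Gja3, -0.05 to 0.41 for Gja1 and -0.339 to 0.042 for Cldn3. Between HER2 and PIK3CA mutants it ran from -0.198 to 0.094 for Cldn7, -0.402 to 0.28 for Cldn1 and -1.10 to 1.87 for Gjc1. In the interaction it ran from -0.212 to 3.497 for Gjc1, -0.057 to 1.11 for Cldn2, -0.253 to 1.328 for Gja3, -0.045 to 0.48 for Gja6 and -0.363 to 0.053 for Cldn3. Without double mutant libraries 2 and 3, Cldn3 was at -0.18 against WT and -0.20 against HER2 mutants, Cldn7, Cldn4 and Gja1 at -0.051, -0.71 and -0.45 against PIK3CA mutants, and Gja6 at -0.15 in the interaction. With limma, Cldn2 was at -0.16 in double mutants against WT and Gjc1 at 0.25 between HER2 and PIK3CA mutants. Depth limits the low members, since 3 counts equal 0.0477 to 0.0668 CPM and Gja3, Gjc1 and Gjb1 in WT rest on few counts.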

Other observations

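Elf3, an epithelial transcription factor, was lower in double mutants than with the HER2 mutation alone (log2 difference -1.29, edgeR adjusted p 0.0266, SE 0.283), with 25.0 ± 8.63 CPM (SD, n = 5) against 61.1 ± 26.1 CPM (SD, n = 4). That call was lost in 4 of 9 fits without a library, with the replicate block and in a fit of these genotypes alone. Between HER2 and PIK3CA mutants, Mpdz was higher (1.05, edgeR adjusted p 0.0114, SE 0.209) and Prkca lower (-1.18, adjusted p 0.00846, SE 0.220) in HER2 mutants, and both calls were kept in all 8 fits without a library.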
